A study of Mus musculus with 13 samples.

Results

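Genes that decide whether red cell precursors live or die were followed in mouse bone marrow after blood loss. The set held the genes annotated as Bcl2l1, Mcl1, Bcl2, Bax, Bcl2l11, Bad, Bbc3, Fas and Fasl, and a gene was measured where at least 1 probe set was annotated to it alone. By that rule 8 of the 9 genes were measured, 1 probe set each, among 19938 genes in all. Bax, a pore-forming effector of apoptosis, was not analysed here. The marrow came from femurs of C57BL/6 male mice aged 6 weeks, either untouched by phlebotomy (control, 3 arrays) or 4 h (1 array), 9 h (3), 12 h (2), 15 h (2) or 48 h (2) after 500 µL of blood had been drawn from behind the eye. Strain, sex, age and diet were the same in all groups, and no allele or transgene was involved. The labels give neither a sham puncture nor an hour of collection, and the 4 h group is 1 array. Whole marrow RNA was hybridised, so each level sums over erythroid, myeloid and lymphoid cells, and fewer cells of a type cannot be told apart from less of the RNA per cell.

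Red cell precursors are made in excess and many die unless erythropoietin reaches them. The hormone acts through JAK2 and STAT5, and 1 of its classical outputs is Bcl2l1, which encodes BCL-XL, a guardian of the mitochondrial outer membrane in maturing erythroblasts. MCL1 and BCL2 hold the same role at earlier stages and in other blood lineages. The BH3-only proteins BIM (Bcl2l11), BAD and PUMA (Bbc3) bind these guardians and release the effectors BAX and BAK. FAS, a death receptor, and its ligand act from outside the cell and limit the number of early erythroblasts. Blood loss raises erythropoietin within hours, and the question asked of each member was whether its transcript in marrow moved with that signal.

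The arrays fall into 2 runs of title numbers, with 10 arrays in the larger and 3 in the smaller, which holds control replicate 3 and 9 h replicates 1 and 2. Array medians lay between 6.98 and 7.03 on the log2 scale in the larger run and between 7.77 and 7.80 in the smaller, so no level was set across runs and each comparison carried a term for the run. In the smaller run 75.6% of genes repeated a value between arrays, and 47.7% had a single value on all 3. Among the members these counts were 5 of 8 and 3 of 8. Marker lists were read to see what the tissue held. In the larger run the mean log2 level of 15 erythroid markers lay between 11.23 and 11.95 and that of 14 neutrophil markers between 12.20 and 12.42. The 4 h array stood apart through 12 of 14 small intestine markers that rose in it (median log2 change 4.04), beside 10 skeletal muscle markers with a median of 1.61 and 0 past the test. The controls held intestinal transcripts too. The mean log2 level of the intestine markers was 6.57 and 6.47 in the controls of the larger run, against 5.74 to 5.91 in its arrays from 9 h to 48 h, and 7.13 in the control of the smaller run against 6.55 and 6.51. Of the 14 markers 3 fell at 9 h, 3 at 12 h, 4 at 15 h and 3 at 48 h, where 1 also rose. Every comparison with control thus carries this difference of the controls. At 48 h 8 of 11 liver markers rose (median 1.47). The part of these tissues in the results was not tested.

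No member passed the test at any time after phlebotomy. Changes are log2 differences from control in 1 limma fit to all 19938 genes, and passing meant an adjusted p (Benjamini-Hochberg) under 0.05. Across 8 members and 5 times, 0 of 40 comparisons passed by limma, with 1 at an unadjusted p under 0.05, and the smallest adjusted p was 0.281. That 1 was Bcl2 at 48 h. Over all genes the share at an unadjusted p under 0.05 was 15.2% at 4 h, 6.12% at 9 h, 13.7% at 12 h, 12.5% at 15 h and 14.0% at 48 h. Over all genes the share that passed was 1.99% at 4 h, 0.0953% at 9 h, 0.105% at 12 h, 0.256% at 15 h and 0.376% at 48 h. In the larger run the arrays of a time did not overlap the controls for 2 of 8 members at 12 h, against 40.1% of all genes. For 15 h the count was 1 of 8, against 39.5%, and for 48 h it was 4, against 40.2%. The largest of the 40 differences was 0.30 on the log2 scale, and all 40 of the 95% intervals lay inside a 1.5-fold change in either direction. The bound farthest from 0 was 0.68-fold, for Bcl2 at 48 h. In the larger run alone all 40 intervals were again inside 1.5-fold and the largest difference was 0.25. Intervals of the fits that left out 1 array were not read against 1.5-fold. In those fits Bcl2 at 48 h moved as far as −0.45, without control replicate 2. The median size of a change over the members was 0.12 at 4 h, 0.08 at 9 h, 0.10 at 12 h, 0.13 at 15 h and 0.08 at 48 h. Over all genes it was 0.12, 0.07, 0.10, 0.10 and 0.10.

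**Figure D1:**
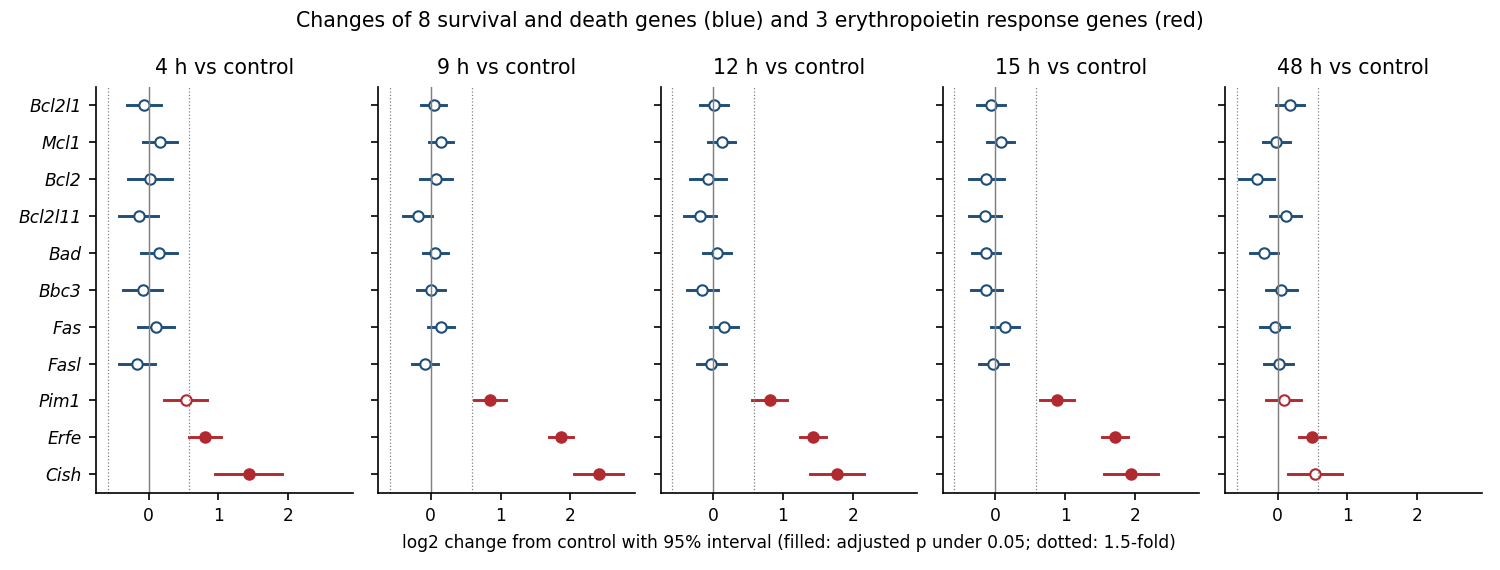
Log2 change from control (x axis) with its 95% interval for the 8 survival and death genes (blue) and for Pim1, Erfe and Cish (red) at each time; filled points passed at an adjusted p under 0.05 and dotted lines mark 1.5-fold. All 40 blue intervals stay between the dotted lines, while Cish reached 2.40 and Erfe 1.86 at 9 h.

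Other genes on the same arrays did pass. Cish, a feedback inhibitor that STAT5 induces, Erfe, the erythroblast hormone erythroferrone, and Pim1, a kinase that promotes cell survival and is another STAT5 target, served as reference genes. At 9 h Cish was 5.29-fold above control with an interval of 4.16 to 6.74, Erfe 3.64-fold with 3.24 to 4.08, and Pim1 1.80-fold with 1.54 to 2.10. At that time the interval of Bcl2l1 ran from 0.91-fold to 1.17-fold. Both 9 h arrays of the smaller run hold the same value for Bcl2l1, and repeated values can narrow such an interval. Its 9 h log2 difference was 0.13 in the larger run and −0.05 in the smaller. At 12 and 15 h together Pim1 was 1.80-fold above control (adjusted p = 0.00450) and Bcl2l1 0.98-fold, with an interval of 0.87 to 1.11. The interval of Bcl2l1 thus held no change as large as the lower bound of any reference gene at 9 h, or at 12 and 15 h. At 48 h this was not so. The interval of Bcl2l1 then reached 1.30-fold, while those of Erfe, Cish and Pim1 began at 1.23-fold, 1.11-fold and 0.90-fold, and of these 3 genes only Erfe passed. The difference between 2 genes' changes was not tested. The reference genes are also among the responders of a list of erythropoietin and STAT5 responses, read further below. Of its 16 measured genes 12 did not pass at 9 h, and 11 did not at 12 and 15 h together.

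Promoter sequence is shown for Cish, which rose, for Bcl2l1, the member most tied to STAT5, and for Fas, where the STAT consensus was found among the members. The consensus TTCNNNGAA reads the same on both strands and was searched in RefSeq windows (GRCm38.p6) from 250 bases before to 50 after each start. It was the only motif searched. It was present in 8.30% of 32851 windows. The 15 windows of the 9 genes held it in 1, that of Fas, and the Cish window held it 2 times. Printed are the 170 bases before the start and the 30 after it, 5′ to 3′ on the gene's strand, with the consensus in capitals. The first copy in Cish begins at base 1 of the transcript and the second at base 12, and that of Fas begins 93 bases before the start. The positions are chr9:107296489-107296688 on the plus strand for Cish, chr2:152831699-152831898 on the minus strand for the farthest upstream of the 3 windows given for Bcl2l1, whose annotated gene extends further upstream, and chr19:34290489-34290688 on the plus strand for Fas. A match is a description of letters, and Pim1 and Erfe, which also rose, had none in their windows.
Cish: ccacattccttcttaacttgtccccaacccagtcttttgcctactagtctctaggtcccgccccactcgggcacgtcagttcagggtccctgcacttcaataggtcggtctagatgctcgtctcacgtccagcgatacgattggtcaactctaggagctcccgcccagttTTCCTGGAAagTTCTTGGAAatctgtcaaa
Bcl2l1: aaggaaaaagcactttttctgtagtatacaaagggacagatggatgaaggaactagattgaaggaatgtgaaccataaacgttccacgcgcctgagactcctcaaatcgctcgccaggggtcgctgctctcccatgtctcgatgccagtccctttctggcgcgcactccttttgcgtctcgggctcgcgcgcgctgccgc
Fas: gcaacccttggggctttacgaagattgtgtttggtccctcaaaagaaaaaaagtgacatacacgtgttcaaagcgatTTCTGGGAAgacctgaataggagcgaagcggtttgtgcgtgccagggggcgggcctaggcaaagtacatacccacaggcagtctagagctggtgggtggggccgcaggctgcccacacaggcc

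Bcl2l1 (Entrez 12048, chromosome 2, 152758732 to 152833803 in GRCm38.p6), which encodes BCL-XL, stood at log2 10.02 and 10.24 in the controls of the larger run. It was at 10.09 at 4 h, 10.26 at 9 h, 10.11 and 10.24 at 12 h, and 10.10 and 10.08 at 15 h. The arrays from 4 h to 15 h thus lay between the controls or barely above them. At 48 h it was at 10.37 and 10.30, above both controls and above every earlier array of that run. In the smaller run the control read 10.88 and both 9 h arrays 10.83. The fitted changes were −0.06 ± 0.11 (SE) at 4 h, 0.04 ± 0.08 at 9 h, 0.02 ± 0.09 at 12 h, −0.07 ± 0.09 at 15 h and 0.18 ± 0.09 at 48 h (limma adjusted p = 0.405). The controls differed between themselves by more than that last value. The order of the times from low to high put 15 h and 4 h first and 48 h last, and no time was separated from control by the test.

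Mcl1 (chromosome 3, 95656944 to 95663179), which encodes a short-lived guardian needed by stem cells and early erythroblasts, was at 10.90 and 10.73 in the controls of the larger run. It read 11.00 at 4 h and 11.04 at 9 h, then 10.90 and 11.03 at 12 h, 10.87 and 10.96 at 15 h, and 10.80 and 10.84 at 48 h. The single arrays at 4 h and 9 h lay above both controls, and both 48 h arrays lay between them. In the smaller run the control was at 11.43 and the 9 h arrays at 11.45 and 11.56. The changes were 0.16 ± 0.11 at 4 h, 0.15 ± 0.08 at 9 h (adjusted p = 0.810), 0.12 ± 0.09 at 12 h, 0.08 ± 0.09 at 15 h and −0.02 ± 0.09 at 48 h. None passed.

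Bcl2 (chromosome 1, 106538176 to 106714290), the founding member of the family and a survival gene of lymphocytes and early progenitors, was the most spread of the members, over 0.56 log2 units in the larger run. The controls were at 9.53 and 9.22, the 4 h array at 9.44, the 9 h array at 9.59, the 12 h arrays at 9.37 and 9.32, and the 15 h arrays at 9.35 and 9.24. The 48 h arrays, at 9.21 and 9.03, were the lowest of the run, the higher of them just under control replicate 2. In the smaller run the control and 9 h replicate 1 shared the value 10.36 and 9 h replicate 2 was at 10.23. The difference from control at 48 h was −0.30 ± 0.12, the largest of any member at any time, with an adjusted p = 0.281. It was −0.21 without 48 h replicate 2 and −0.45 without control replicate 2. Beside it, the 12 B-lineage markers had a median change of −0.29 at 48 h with 0 of 12 past the test, and their mean log2 level was 9.53 and 9.69 in the 48 h arrays against 9.93 and 9.81 in the controls. At 4, 9, 12 and 15 h the marker medians were −0.18, 0.03, −0.28 and −0.15, and the changes of Bcl2 were 0.02, 0.07, −0.07 and −0.13. By their median the markers were about as low at 12 h as at 48 h. Their mean log2 level was 9.70 and 9.69 in the 12 h arrays. The part of B cells in the value for Bcl2 was not tested.

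**Figure D2:**
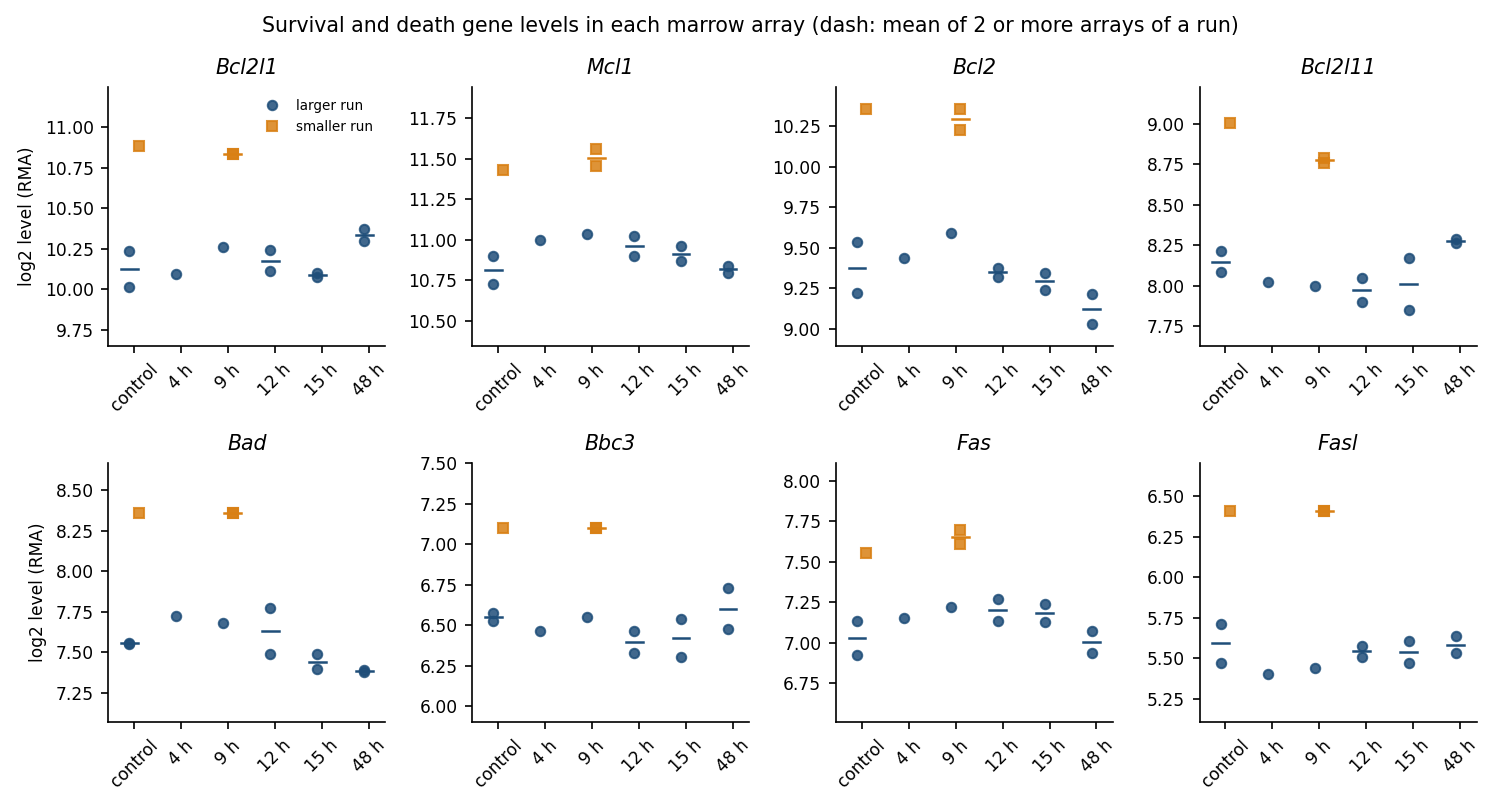
Log2 level of each of the 8 members (y axis, each panel 1.6 units high) in every array by group; circles are the larger run, squares the smaller, and dashes the mean of 2 or more arrays. Groups sit close together within a run, with Bcl2l1 and Bcl2l11 highest in the larger run at 48 h.

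Bcl2l11 (chromosome 2, 128126038 to 128162547), which encodes BIM, a BH3-only killer that FOXO3 activates and erythropoietin signalling represses, was lower than control in most arrays from 4 h to 15 h. Its controls in the larger run were at 8.08 and 8.21, and the arrays read 8.02 at 4 h, 8.001 at 9 h, 7.90 and 8.05 at 12 h, and 7.85 and 8.17 at 15 h. Only the second 15 h array reached the range of the controls. The 48 h arrays were at 8.29 and 8.27, above both controls. In the smaller run, where the control was at 9.01, the 9 h arrays were at 8.76 and 8.79. The 9 h difference was −0.15 in the larger run and −0.23 in the smaller, the same direction in both. The fitted changes were −0.14 ± 0.13 at 4 h, −0.19 ± 0.09 at 9 h (adjusted p = 0.810), −0.19 ± 0.10 at 12 h, −0.15 ± 0.10 at 15 h and 0.12 ± 0.10 at 48 h. None of them passed.

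Bad (chromosome 19, 6941861 to 6951905), whose protein is held inactive by growth factor signalling through phosphorylation, was tight in the controls at 7.56 and 7.55. It was at 7.73 at 4 h, 7.68 at 9 h, 7.78 and 7.49 at 12 h, 7.49 and 7.40 at 15 h, and 7.39 and 7.38 at 48 h. The 15 h and 48 h arrays all lay below the controls, and the 12 h arrays stood on either side of them. The changes were 0.15 ± 0.11 at 4 h, 0.06 ± 0.09 at 12 h, −0.13 ± 0.09 at 15 h and −0.19 ± 0.09 at 48 h (adjusted p = 0.389). At 9 h the value was 0.13 in the larger run and 0.00 in the smaller, where all 3 arrays hold 8.36.

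Bbc3 (chromosome 7, 16308398 to 16318334), which encodes PUMA, a target of p53, was at 6.58 and 6.52 in the controls of the larger run. It read 6.46 at 4 h, 6.55 at 9 h, 6.33 and 6.46 at 12 h, 6.54 and 6.30 at 15 h, and 6.73 and 6.48 at 48 h. The 12 h arrays lay below both controls and the 48 h arrays on either side. Changes ran from −0.16 ± 0.10 at 12 h (adjusted p = 0.533) to 0.05 ± 0.10 at 48 h, and the 3 arrays of the smaller run share 1 value, 7.10.

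Fas (chromosome 19, 34290647 to 34327775), the death receptor, was at 6.92 and 7.13 in the controls of the larger run. The arrays were at 7.15 at 4 h, 7.22 at 9 h, 7.13 and 7.27 at 12 h, 7.13 and 7.24 at 15 h, and 6.94 and 7.07 at 48 h. From 4 h to 15 h no array lay below the midpoint of the controls, yet control replicate 2 was level with 1 array of each of the 12 h and 15 h groups. In the smaller run the control was at 7.55 and the 9 h arrays at 7.70 and 7.61. The changes were 0.11 ± 0.12 at 4 h, 0.15 ± 0.08 at 9 h, 0.16 ± 0.09 at 12 h, 0.14 ± 0.09 at 15 h and −0.04 ± 0.09 at 48 h, with adjusted p of 0.493 or more. Fas and Mcl1, which oppose each other in function, had positive values at the same 4 times.

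Fasl (chromosome 1, 161780691 to 161788495), the ligand made chiefly by activated T and NK cells, was at 5.47 and 5.71 in the controls. All other arrays of the larger run lay between 5.41 and 5.64, and in the smaller run the value was 6.41 on all 3. Its mean level over the larger run was in the lowest 25% of all genes, and the deposited table carries no detection call, so whether it was above background is unknown. Its changes ran from −0.16 ± 0.12 at 4 h (adjusted p = 0.570) to 0.02 ± 0.09 at 48 h. The 15 T and NK cell markers had 0 of 15 past the test at each of the 5 times, with medians from −0.22 at 48 h to 0.15 at 9 h.

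Late marrow was then set against the middle phase, 48 h against 12 and 15 h together (2 arrays against 4, all in the larger run). The difference of means uses no control array, but the controls enter the residual spread behind each p. By limma 0 of 8 members passed, against 0.828% of all genes, or 165 genes. That number was 1265 without control replicate 1 and 28 without 48 h replicate 1, and 0 members passed in either. In the fit to all arrays 3 of 8 had an unadjusted p under 0.05, against 18.8% of all genes. The arrays of the 2 phases did not overlap for 6 of 8 members, against 27.4% of all genes in either direction. Bcl2l1 (0.20 ± 0.08, adjusted p = 0.215) and Bcl2l11 (0.28 ± 0.09, adjusted p = 0.145) were the 2 with both late arrays above all 4 middle ones. Mcl1 (−0.12 ± 0.08), Bcl2 (−0.20 ± 0.10), Bad (−0.15 ± 0.08) and Fas (−0.19 ± 0.08) were the 4 with both late arrays below. Bbc3 (0.20 ± 0.09) and Fasl (0.04 ± 0.08) overlapped. Several of these values leaned on 1 array. Bcl2 was at −0.11 without 48 h replicate 2, Bad at −0.08 without 12 h replicate 1, and Fas at −0.12 without 48 h replicate 1. Bbc3 was at 0.07 without 48 h replicate 1 and at 0.32 without 48 h replicate 2, and Fasl ran from −0.01 to 0.10 as single arrays were left out. The median size of the difference was 0.19 over the members and 0.10 over all genes. The 24 alternative fits gave all the non-overlapping members the sign given here, with adjusted p of 0.101 or more for Bcl2l1 and 0.0986 or more for Bcl2l11. Many of these agreements were fixed in advance. Fits that changed the run term or left out a control, 4 h or 9 h array could not move the difference of means.

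Erythroid markers stood higher in the late phase. Of 15 erythroid markers 1 rose from 12 and 15 h to 48 h, with a median change of 0.36 against 0.02 for all genes. Their mean log2 level was 11.95 and 11.78 at 48 h against 11.44 to 11.59 at 12 and 15 h. It was also unequal in the controls, 11.33 in replicate 1 and 11.79 in replicate 2, in the same order as Bcl2l1 and Bcl2l11. Other lists differed too. Of 11 liver markers 9 rose (median 1.53), and of 6 megakaryocyte markers 1 rose (median 0.28). The 10 bone and stromal markers had a median of −0.72 and no value above −0.11, with 0 past the test. The part of these cells and tissues in the members' values was not tested. At 12 and 15 h together against control 0 of 8 members passed, against 0.682% of all genes, and 0 had an unadjusted p under 0.05, against 15.4%. There Bcl2l11 was at −0.17 ± 0.09 and Fas at 0.15 ± 0.08, and for all 8 members the arrays overlapped those of the controls, where 22.1% of all genes did not.

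**Figure D3:**
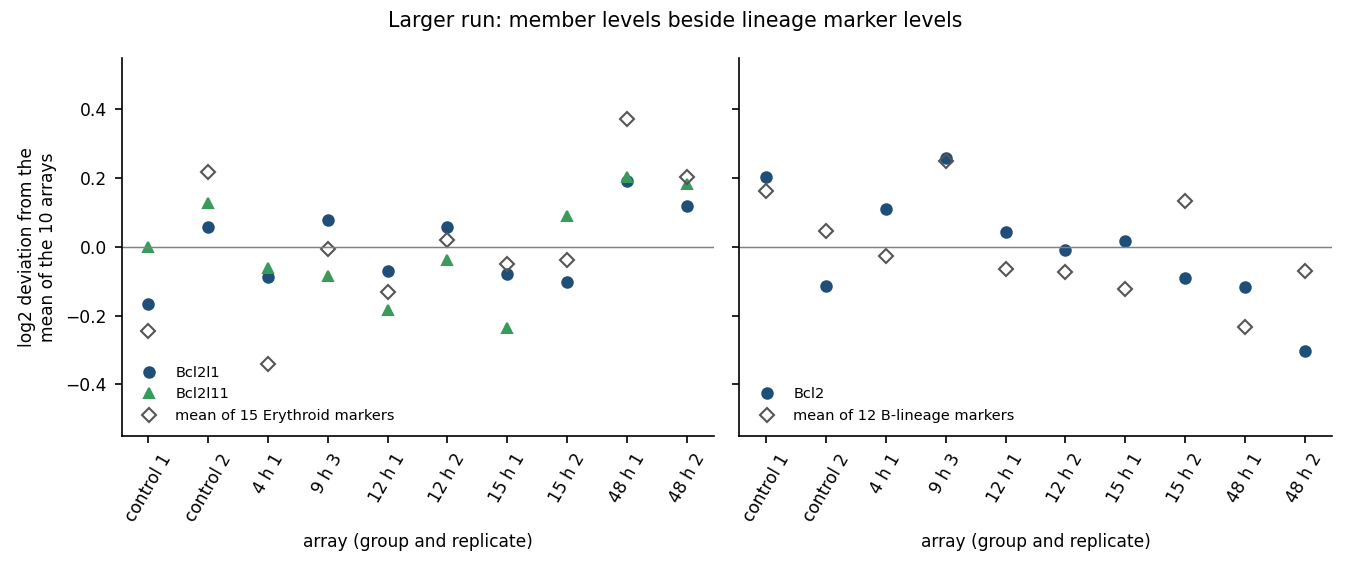
Deviation of each array of the larger run from the mean of its 10 arrays (log2, y axis) for Bcl2l1 and Bcl2l11 beside the mean of 15 erythroid markers (left) and for Bcl2 beside the mean of 12 B-lineage markers (right). Bcl2l1, Bcl2l11 and the erythroid mean are all above 0 in both 48 h arrays and in control replicate 2. Bcl2l1 is above 0 at 9 h, where the erythroid mean is just under 0, and lies on the same side of 0 as that mean in the other arrays. Bcl2l11 is above 0 and the erythroid mean below it in 15 h replicate 2, and the reverse holds in 12 h replicate 2.

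Other genes of the apoptosis machinery were read from lists. Among 15 measured genes of the wider Bcl2 family 0 passed at 9, 12, 15 and 48 h, and 1 rose at 4 h. That gene was Bcl2l15, by 1.06 ± 0.15 (adjusted p = 0.00308), in the array where the intestine markers were highest (mean log2 level 9.84). It passed in 20 of 22 alternative fits (adjusted p from 0.000668 to 0.944), the exceptions being that without the run term and that of the 4 h and control arrays alone. All of those fits used the same 4 h array, so they cannot tell a rise at 4 h from a trait of that array. Bak1, the partner effector of Bax, changed by −0.05 ± 0.10 at 4 h and −0.08 ± 0.08 at 48 h, and Pmaip1 (NOXA), a p53-induced BH3-only gene, by 0.14 ± 0.11 and 0.03 ± 0.09, none past the test. Bnip3l, which clears mitochondria from maturing red cells, was at −0.19 ± 0.06 at 12 and 15 h together (adjusted p = 0.194). These 3 were named for their roles, with their values known.

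Of 22 measured death receptor and caspase genes 0 passed at any of the 5 times, with list medians between −0.03 and 0.02. Casp8, the caspase that FAS activates, was at −0.25 ± 0.07 at 48 h (adjusted p = 0.162), the lowest value of the list at that time, and Fadd, the adaptor between them, at 0.04 ± 0.08. Both were likewise named with their values known. Of 14 p53 targets 1 passed, Perp, a desmosome gene of epithelia, which rose at 4 h by 0.68 ± 0.15 (adjusted p = 0.0445). The call rests on the 4 h array and held in 7 of 23 alternative fits, where its adjusted p ran from 0.0145 to 0.944. Of 11 FOXO3 targets 0 passed at any time, with medians from −0.11 at 12 h to 0.01 at 4 h. The 16 genes of the erythropoietin and STAT5 list, which were in part chosen with results of these arrays known, had 3 that rose at 4 h, 4 at 9 h, 4 at 12 h, 5 at 15 h and 3 at 48 h. None of that list fell against control, and its medians were 0.17, 0.10, 0.25, 0.27 and 0.09.

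**Figure D4:**
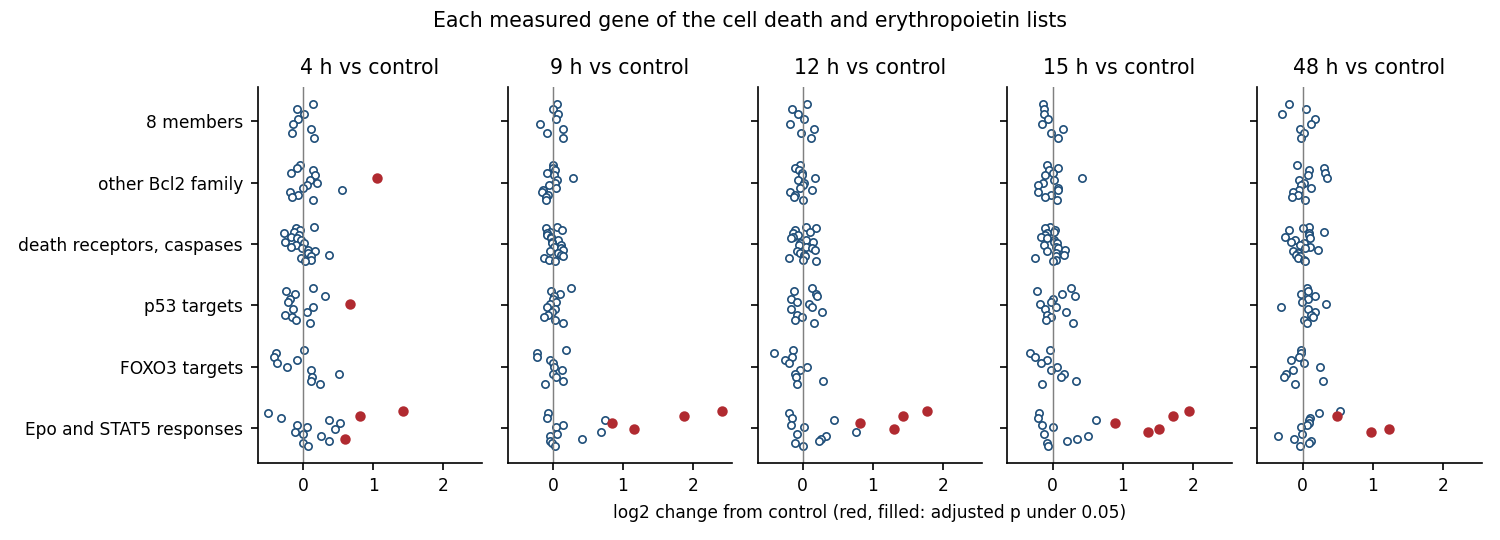
Log2 change from control (x axis) of each measured gene of 6 groups at each time, 1 point per gene, red and filled where the adjusted p was under 0.05. The rows above the erythropoietin row hold 2 red points, Bcl2l15 and Perp, both at 4 h, and the erythropoietin row itself holds 3 to 5 at every time.

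Genes most like a member were sought over the 10 arrays of the larger run by the root mean square difference of centred log2 levels. For Bcl2l11, which itself varied by 0.14 about its mean, the nearest were Tmem127 at 0.05, Mylip, Serinc5 and Limd1, the last at 0.06. For Bad, which varied by 0.14, they were Lmo1 at 0.05, Cox7b2, Prss16 and Galnt9, the last at 0.07. These are the nearest of all genes to profiles of small range, and no more than a description.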

How the data were processed

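Marrow RNA from 13 samples was hybridised to 1-colour Affymetrix Mouse Gene 1.0 ST arrays. The authors deposited log2 levels made with RMA. That is per the submitters' processing notes, and its version and which arrays were normalized together, are not given in the sources used here. Probe sets numbered 35557, of which 21789 had exactly 1 gene symbol, and the one with the highest mean stood for each of 19938 genes. From these values 1 linear model with 6 groups and a run term was fitted with limma 3.58.1 in R 4.3.3 (6 residual and 4.62 prior degrees of freedom). Members, lists and tests were chosen with earlier results of these data known. Named genes were the members, up to 3 called genes per list, 3 reference genes, and the 4 nearest profiles of the 2 members with the smallest F-test p. Bak1, Pmaip1, Bnip3l, Casp8 and Fadd fall outside that rule and were chosen for their roles after their values were seen. Replicates are samples the labels list separately, and the spread behind each p-value may therefore be technical. Simulated data for 19938 genes held independent normal noise. In them the fit found 72% of genes made to differ by log2 0.5 at 12 and 15 h together, and 6% at 0.25. At 4 h the shares were 22% and 2%. For log2 0.5 they were 74% at 9 h, 48% at 12 h, and 54% at 15 h and at 48 h. Simulated calls numbered 152 at 9 h and 131 at 12 h, against 19 and 21 in the arrays, so the shares there may be too high. At 4 h they numbered 117, against 397 in the arrays. The number of arrays limits the precision. Alternatives changed the run term, arrays, filter, probe sets, normalization, moderation and weights. Cish, Erfe, Pim1 and lists carry the same fit. Figures were drawn with matplotlib 3.10.9.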

Additional observations from a re-analysis of the deposited data

How the results depend on the processing

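No member passed in any of the 24 alternative fits, in any of the 7 comparisons, and the smallest adjusted p was 0.0974, for Bcl2 at 48 h without control replicate 2. Of 56 member values 24 kept their sign in every alternative that gave one, and the others changed sign or came to 0 in at least 1. For 48 h against 12 and 15 h, the run term and arrays of other groups could not alter that sign. Of 76 values that moved by more than the residual spread, 48 did so without the run term, 10 without control replicate 2 and 5 without control replicate 1. The counts over all genes moved far more, always without a member among them. Leaving aside the fit with no run term, they ran from 199 to 1852 at 4 h (397 in the reported fit), 3 to 75 at 9 h (19), 2 to 414 at 12 h (21), 6 to 505 at 15 h (51) and 13 to 143 at 48 h (75). For 12 and 15 h together they ran from 9 to 1014 (136) and for 48 h against 12 and 15 h from 28 to 1265 (165). The highest of these at 12 h, 15 h, 12 and 15 h together, and 48 h against 12 and 15 h came without control replicate 1. With no run term they were 78, 6, 5, 5, 11, 6 and 11 in that order; the cause was not tested. Fasl has no value with dim genes left out, and 4 h none without its array. No paired analysis was possible because replicate numbers follow accession order and pair nothing. With so few arrays, a change of log2 0.25 was mostly missed in the simulated data at every time. A change of log2 0.5 was mostly missed there at 4 h and 12 h, and was found in 54% of genes at 15 h and at 48 h.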
